A study of Bos taurus and Cervus elaphus with 24 samples.

Results

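Blood RNA of dairy cattle was compared between the dry period and peak lactation in 2 breeds, Holstein-Friesian (HF) and Polish Red (PR), and the quantity described here is how far the lactation response of HF cattle differed from that of PR cattle. All arrays labelled with either cattle breed were taken, 16 of the 24 in the series. They fall into HF dry period, HF peak lactation, PR dry period and PR peak lactation, with 4 arrays in each group. Each animal was bled in both states, so the subject number joins its 2 arrays, and 4 HF and 4 PR animals each gave 1 response, peak lactation minus dry period. No treatment, genetic modification or age is named in the labels. Every array carried the RNA of 1 animal in Cy5 and, in Cy3, 1 common reference made from 20 other cattle. Values are log2 ratios of Cy5 to Cy3, a response is a difference of such ratios within an animal, and the breed difference is the mean HF response minus the mean PR response. A positive breed difference therefore means a larger response in HF cattle, and does not by itself say whether RNA was higher or lower at peak lactation. The design has 4 animals a breed, and breed cannot be told apart from whatever else differed between the cows of the 2 breeds.

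At peak lactation milk output outruns feed intake, body fat is mobilised, and blood cells meet a high load of free fatty acids. Long fatty acids enter mitochondria through the carnitine shuttle, and their receptors, the PPAR nuclear receptors, switch on genes of that shuttle and of the pyruvate brake. Blood RNA also follows the mixture of leukocytes, which shifts around calving and lactation: neutrophils carry granule and migration genes, cytotoxic lymphocytes carry granzymes, and resting lymphocytes are rich in ribosomal protein RNA.

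The labels call the material peripheral blood nuclear cells, whereas blood was drawn into RNA-fixing tubes for whole animal blood. All 16 defining markers examined were well above background on 16 of 16 arrays, among them the haemoglobin genes HBA and HBB, the red cell enzyme ALAS2 and the granulocyte receptor gene CSF3R. Erythroid and granulocyte transcripts were thus measured on every array. In bulk blood, fewer cells of a type and less RNA per cell cannot be told apart. The dry-period array of PR animal 1 stood apart: its median Cy5 intensity was 2038, against 109 to 255 on the other 15 arrays, 703 of its spots were outliers against 3 to 75, and the spread (SD over probes) of that animal's response was 0.54 against 0.20 to 0.35 in the other 7. The arrays of HF animals 2 and 3 had spike-in correlations with the nominal amounts of 0.17 to 0.40, PR dry 1 had 0.33, and the others had 0.90 or more. Both arrays of each HF animal and of PR animals 1 and 4 lay on 1 slide, whereas the responses of PR animals 2 and 3 crossed slides. PR dry 2 lay on the slide of HF animal 4. It correlated at 0.44 to 0.60 with the HF dry arrays and at 0.096 to 0.37 with the other PR dry arrays. PR dry 3 and 4 had -0.027 to 0.27 with the HF dry arrays. Array positions on a slide were 1 for all HF dry arrays and 3, 3, 3 and 4 for HF lactation. For PR animals 1 to 4 they were 1, 3, 1 and 1 in the dry period and 3, 2, 3 and 4 at peak lactation. Results are given with and without PR animal 1, and without HF animals 2 and 3 where this moved them.

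No probe passed the test of the breed difference. Limma on the 8 animal responses gave 0 of 33478 probes at an adjusted p under 0.05 (0% called), with a lowest adjusted p of 0.905. An unadjusted p under 0.05 was reached by 1550 probes (4.63%), 727 with a larger HF response (2.17%) and 823 with a smaller one (2.46%). The 4 responses of one breed all lay above the 4 of the other for 952 probes (2.84%), 551 with HF above PR (1.65%) and 401 with HF below (1.2%). The response was positive in every HF animal and negative in every PR animal for 131 probes (0.391%), and the other way round for 78 (0.233%). Without PR animal 1, limma again called 0 probes, with a lowest adjusted p of 0.57. The counts at an unadjusted p under 0.05 then became 1674 larger (5%) and 613 smaller (1.83%). The share with a larger HF response thus went from 46.9% to 73.2% with 1 animal left out. Without that animal the responses were separate for 1624 probes with HF above PR (4.85%) and 750 with HF below (2.24%), and opposite in sign in 409 (1.22%) and 181 (0.541%), counts that fewer animals make easier to reach.

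Across the 13598 genes, each represented by its brightest probe, the mean HF and PR responses correlated at r = 0.30, and 55.4% of genes had the same sign. Genes are not independent replicates and both breeds share the reference RNA, so this is a description. Between animals of one breed the responses correlated at 0.17 to 0.37 in HF and at -0.20 to 0.38 in PR, and between breeds at -0.14 to 0.23. The PR range covers both of the other ranges. All genes named below had an adjusted p of 0.905 or more, so the values that follow describe these 8 animals. Most were taken by a fixed rule of smallest unadjusted p among genes with separate or opposite responses and within gene lists, which favours large values. List members mentioned for their role alone were chosen after their values were seen, and genes such as MMP9 and JUN were named for an earlier report.

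CPT1A, SLC25A20 and PDK4, genes of fatty acid use, had larger responses in PR animals, with no overlap between the breeds in the brightest probe of each. CPT1A, carnitine palmitoyltransferase 1A, which commits long fatty acids to the carnitine shuttle, had log2 ratios of -0.64, -0.64, -0.66 and -0.98 in dry HF animals 1 to 4 and -0.36, -0.34, -1.496 and -1.09 at peak lactation. In PR animals they were -1.03, -1.30, -0.64 and -0.85 in the dry period and 0.11, 0.042, 0.41 and 0.82 at peak lactation. All 4 PR lactation arrays lay above all 12 others, which overlapped among themselves. The CPT1A responses were 0.28, 0.30, -0.83 and -0.10 in HF and 1.14, 1.34, 1.05 and 1.67 in PR, means of -0.090 ± 0.53 and 1.299 ± 0.27 (SD, n = 4 each), and the breed difference was -1.39 (SE 0.25, unadjusted p = 0.000322). It was -1.44 without PR animal 1, -1.21 without HF animals 2 and 3, and -1.22 with slide as a block.

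The CPT1A signal came from 1 of 2 probes for the gene, which are printed because they gave different answers. The brighter probe lies at chr29:46824212-46824271 on the minus strand of UMD 3.1 and carried the values above. The other maps to the span chr29:46849256-46850555 on the minus strand, and gave mean responses of 0.092 in HF and 0.22 in PR, a difference of -0.12 (SE 0.17, unadjusted p = 0.492). The sequences, 5′ to 3′, are:
CPT1A, brighter probe: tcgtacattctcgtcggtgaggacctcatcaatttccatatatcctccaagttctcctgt
CPT1A, other probe: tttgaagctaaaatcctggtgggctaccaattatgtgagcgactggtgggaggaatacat

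SLC25A20, the carnitine-acylcarnitine carrier of the inner membrane (chr22:51652477-51652536, plus strand), had log2 ratios of -0.27, 0.038, -0.015 and -0.20 in dry HF animals and -0.31, 0.17, -0.29 and -0.50 at peak lactation. The PR values were -0.85, -0.50, -0.76 and -0.60 in the dry period and 0.034, -0.28, 0.31 and 0.32 at peak lactation. All 4 dry PR arrays were lower than every HF dry array, and the peak-lactation values of the breeds overlapped. The responses were -0.045, 0.13, -0.27 and -0.30 in HF and 0.88, 0.22, 1.07 and 0.93 in PR, means of -0.12 ± 0.20 and 0.77 ± 0.38, and the breed difference was -0.90 (SE 0.20, unadjusted p = 0.00113), or -0.86 without PR animal 1. PDK4, the kinase that shuts off pyruvate entry when fat is burned (chr4:12755286-12755345, minus strand), had log2 ratios of -1.20, -1.13, -0.89 and -1.35 in dry HF and -0.97, -0.88, -1.63 and -1.29 in lactating HF animals. In PR animals they were -1.30, -1.72, -1.64 and -1.66 and -0.40, -0.92, 0.22 and -0.45 in the same order. The responses overlapped in no animal, 0.22, 0.25, -0.74 and 0.062 in HF against 0.90, 0.80, 1.86 and 1.20 in PR, with a breed difference of -1.24 (SE 0.28, unadjusted p = 0.00145), or -1.34 without PR animal 1. All 8 PDK4 probes had a difference below 0, from -1.24 to -0.10.

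**Figure D1:**
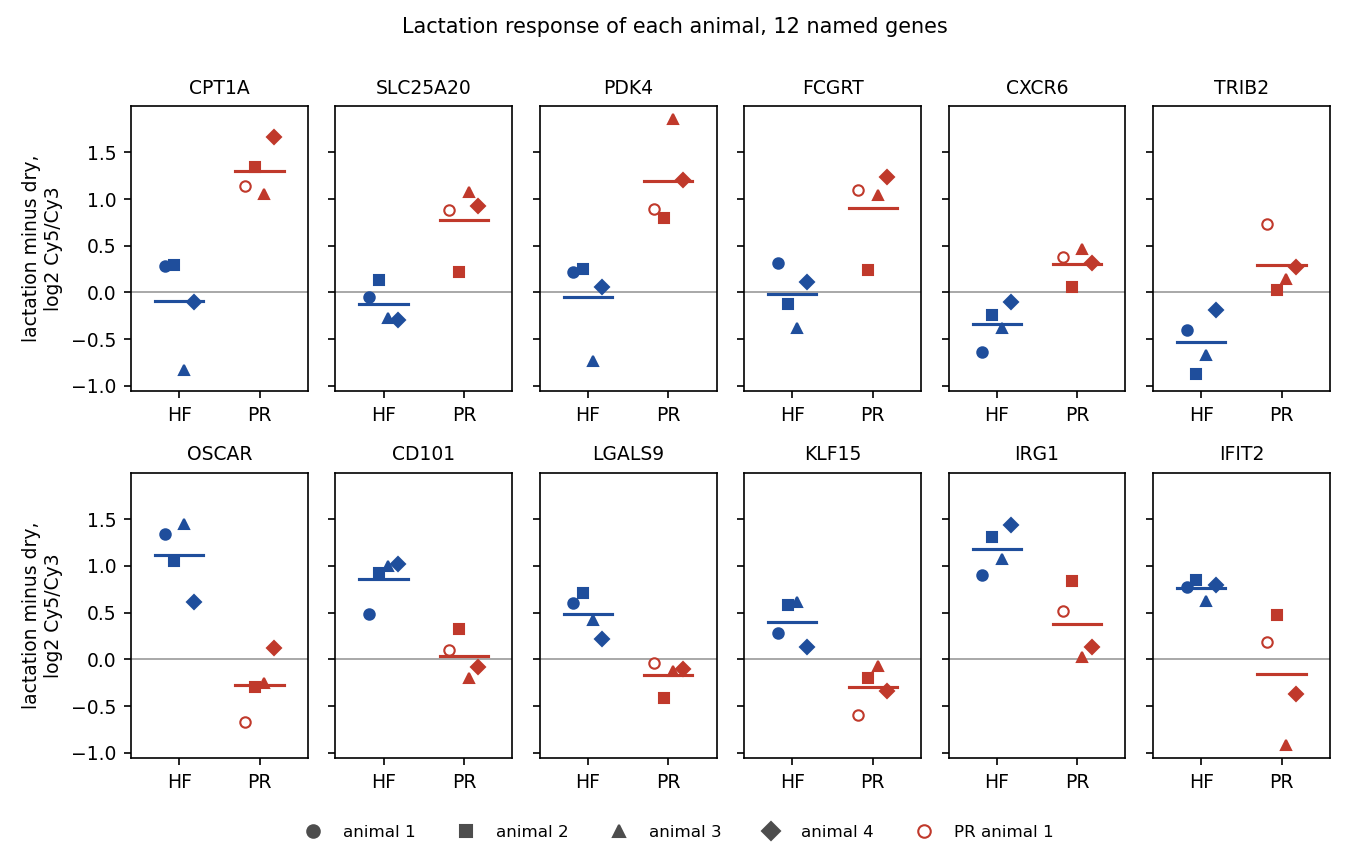
Lactation responses (peak lactation minus dry period, log2 Cy5/Cy3, vertical axes) of single HF and PR animals for genes described in the text. Each point is 1 animal, its shape gives the subject number, the open circle is PR animal 1, and the short line is the mean of 4. For CPT1A the PR points lie between 1.05 and 1.67 and the HF points between -0.83 and 0.30.

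Most of the fatty acid and PPAR target list did not share this separation. Of 47 genes, 42 were measured, 17 with a breed difference above 0 and 25 below. Their median was -0.093, or -0.020 without PR animal 1, against -0.061 and -0.022 over all 13598 genes. An unadjusted p under 0.05 was reached by 3 members with a smaller HF response (3.13% of all genes) and 1 with a larger one (1.61% of all genes), ACSL4, an acyl-CoA synthetase, at 0.41 (SE 0.15). Separate responses were found in 4 members with HF below PR (1.52% of all genes), CPT1A, SLC25A20, PDK4 and ACADS, the short-chain acyl-CoA dehydrogenase, at -0.24, and in 0 with HF above PR (1.13% of all genes). The muscle form CPT1B had -0.19, and CPT2, the enzyme on the matrix side of the shuttle, -0.042. The dehydrogenase gene ACADM had -0.43 and the electron carrier gene ETFB -0.50, while the lipoprotein receptor gene VLDLR had 0.63. The receptor genes PPARD and PPARG both had 0.058. CPT1A, SLC25A20 and PDK4 therefore stood at the lower end of a list centred near 0.

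**Figure D2:**
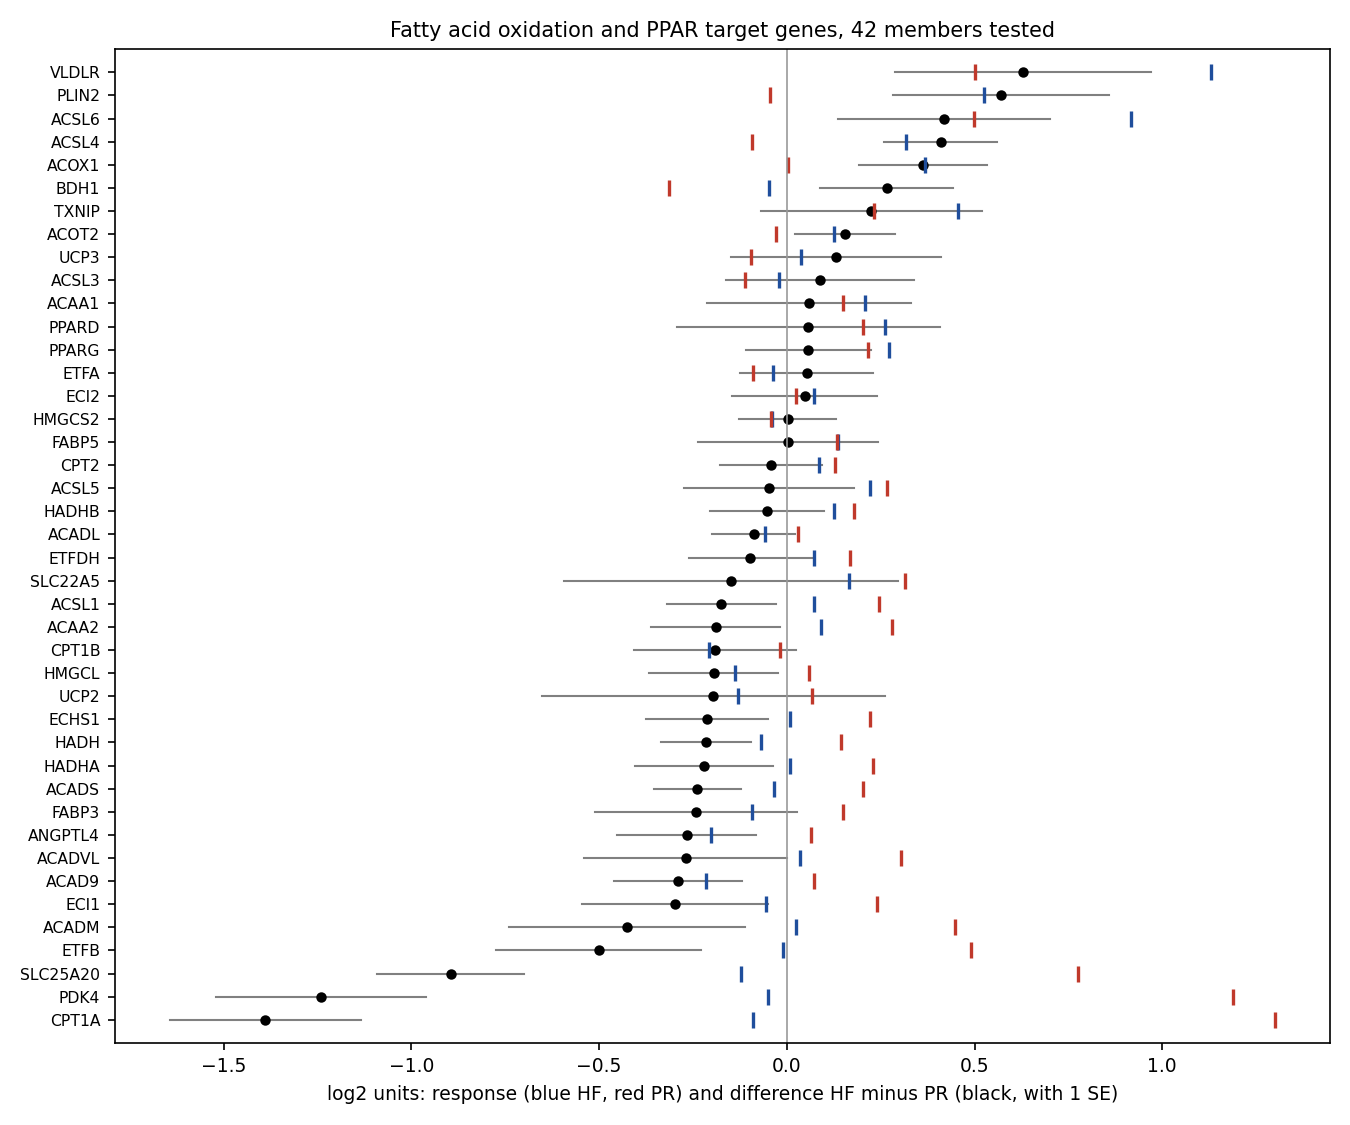
Breed difference of the lactation response (HF minus PR, log2, horizontal axis) for each measured member of the fatty acid oxidation and PPAR target list, ordered by value, with bars of 1 SE. CPT1A, PDK4 and SLC25A20 have the lowest values, at -1.39, -1.24 and -0.90, and the median member lies at -0.093.

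Further genes with a larger PR response had various roles. GZMB, granzyme B of cytotoxic lymphocytes, had responses of -0.40, -0.12, -1.20 and -0.27 in HF animals and 1.02, 0.66, 0.76 and -0.11 in PR animals, a breed difference of -1.08 (SE 0.29, unadjusted p = 0.004) and -0.94 without PR animal 1. It was lower at peak lactation in 4 of 4 HF animals and higher in 3 of 4 PR animals, and its 4 probes had differences of -1.08 to -0.44. PPBP, a platelet chemokine gene, had responses of -0.98, -0.71, -0.96 and -0.40 in HF and 0.85, 0.031, -0.26 and 0.30 in PR and a difference of -0.99 (SE 0.24, unadjusted p = 0.00198). TRIB2, a pseudokinase that tunes protein turnover and signalling, had responses of -0.40, -0.88, -0.67 and -0.19 in HF and 0.73, 0.025, 0.14 and 0.27 in PR, opposite in sign in all 8 animals. Its difference was -0.83 (SE 0.20, unadjusted p = 0.00196), and its 5 probes had -0.83 to -0.077. CXCR6, the chemokine receptor of tissue-homing T cells, was likewise opposite in all animals, -0.64, -0.24, -0.38 and -0.10 against 0.38, 0.062, 0.46 and 0.31, with a difference of -0.64 (SE 0.15, unadjusted p = 0.00153). FCGRT, the neonatal Fc receptor that carries IgG and albumin, had 0.32, -0.13, -0.38 and 0.12 in HF and 0.24 to 1.23 in PR, with animal 2 lowest. The FCGRT responses overlapped, the difference was -0.92 (SE 0.23, unadjusted p = 0.00305), and its 3 probes ranged from -0.92 to 0.023.

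HLTF, a helicase-like chromatin remodeller of DNA repair, had responses of -0.23, -0.66, -0.41 and -0.11 in HF and 0.86, 0.49, 0.0010 and 0.23 in PR, and a difference of -0.75 (SE 0.20, unadjusted p = 0.00388). The other HLTF probe had -0.36 (SE 0.17), and the HLTF value was -0.47 without PR animals 1 and 2. The brighter HLTF probe lies at chr1:120027657-120027716, plus strand, and is shown because every animal of one breed was opposite in sign to every animal of the other:
HLTF, brighter probe: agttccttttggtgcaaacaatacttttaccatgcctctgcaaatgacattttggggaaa
SPDEF, an ETS factor of secretory epithelia, had a difference of -0.75 (SE 0.15), which was -0.48 with slide as a block. The zinc finger gene ZNF836 had -0.70, SCRN1, linked to secretion, -0.45, and FAM120B, which encodes a coactivator of PPARG, -0.45. The smallest difference among the probes was -0.13 for SCRN1 and -0.12 for FAM120B. Of the genes with opposite responses, LBH, a transcription cofactor gene, had -0.72 (SE 0.21) (4 probes, -0.72 to -0.083), the Integrator subunit gene INTS1 -0.57 (SE 0.17), and the lymphocyte receptor gene GPR18 -0.50 (SE 0.14). LANCL1, a glutathione-binding protein gene, had -0.36 (SE 0.11) by its brighter probe and 0.036 by the other, so its probes disagreed in sign.

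Among genes with a larger HF response, OSCAR, an activating immunoglobulin-like receptor of myeloid cells that binds collagen, had the smallest unadjusted p. Its log2 ratios were -1.14, -0.99, -0.52 and -0.80 in dry HF animals 1 to 4 and 0.20, 0.062, 0.92 and -0.19 at peak lactation. The PR animals had -0.10, -0.62, -0.63 and -0.67 in the dry period and -0.77, -0.92, -0.89 and -0.55 at peak lactation. Every HF animal was higher at peak lactation, and 3 of 4 PR animals were lower. The responses, 1.34, 1.05, 1.45 and 0.62 in HF and -0.67, -0.30, -0.25 and 0.12 in PR, did not overlap. They averaged 1.11 ± 0.37 and -0.28 ± 0.32, a breed difference of 1.39 (SE 0.22, unadjusted p = 9.75e-05), by the 1 OSCAR probe at chr18:63470908-63470967 on the plus strand. It was 1.26 without PR animal 1 and 1.25 without HF animals 2 and 3.

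Further genes had separate responses in the same direction, although none of the measured neutrophil or monocyte list members did. CD101, an inhibitory surface receptor, had responses of 0.49, 0.93, 0.99 and 1.02 in HF and 0.10, 0.32, -0.20 and -0.084 in PR, a difference of 0.82 (SE 0.16, unadjusted p = 0.000595). IRG1, the mitochondrial enzyme that makes itaconate in activated macrophages, had 0.90, 1.31, 1.07 and 1.44 and 0.52, 0.83, 0.029 and 0.13, with a difference of 0.80 (SE 0.20, unadjusted p = 0.0026). All 8 animals were thus higher at peak lactation for IRG1, to a larger extent in HF. NOD2, the cytosolic sensor of bacterial wall fragments, had 0.45, 0.85, 0.46 and 0.28 in HF and 0.054, -0.012, 0.024 and 0.065 in PR, with a difference of 0.48 (SE 0.13, unadjusted p = 0.00578). IL13RA1, a receptor chain for IL-4 and IL-13, had 0.60, 0.73, 0.77 and 0.72 and 0.46, 0.18, 0.17 and 0.24, with a difference of 0.44 (SE 0.11, unadjusted p = 0.00308). CYRIA, a brake on RAC1-driven actin, had 0.72 (SE 0.17), which was 0.46 without HF animals 2 and 3. The scavenger receptor gene SCARF1 had 0.50 and the membrane protein gene TMEM51 0.57, or 0.13 by its other probe.

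Opposite responses with HF animals higher and PR animals lower at peak lactation were seen for 42 genes (0.309%), and the reverse for 40 (0.294%). LGALS9, galectin-9, a sugar-binding regulator of T cells, had 0.60, 0.71, 0.42 and 0.22 in HF and -0.034, -0.42, -0.13 and -0.11 in PR. Its breed difference was 0.66 (SE 0.14, unadjusted p = 0.00114), and a separate probe had 0.39 (SE 0.12), also above 0. KLF15, a glucocorticoid-induced regulator of amino acid and glucose use, had 0.28, 0.58, 0.61 and 0.13 in HF and -0.59, -0.20, -0.067 and -0.34 in PR, a difference of 0.70 (SE 0.16, unadjusted p = 0.00155), whereas its other probe had 0.090. SREBF1, the regulator of fatty acid synthesis, had 0.023, 0.42, 0.10 and 0.20 and -0.26, -0.028, -0.39 and -0.17, with a difference of 0.40 (SE 0.13, unadjusted p = 0.0137). The remaining genes of this kind under the naming rule were MYBPH, a myosin-binding protein gene, at 0.70 (0.47 without HF animals 2 and 3), GALNTL5 at 0.63, SLC35E4, an orphan carrier gene, at 0.54, PIK3AP1, a PI3-kinase adaptor gene, at 0.48, ACVR2B, an activin receptor gene, at 0.39, and REM2, a small GTPase gene, at 0.34. GALNTL5 was above background on 15 of 16 arrays. The brighter LGALS9 probe spans chr19:19754444-19756706, and IFIT2, whose responses are given with the interferon list, has its probe at chr26:11071063-11071122, both on the plus strand. They are shown as the interferon-stimulated genes with separate responses:
LGALS9, brighter probe: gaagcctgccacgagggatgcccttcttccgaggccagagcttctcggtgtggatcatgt
IFIT2, only probe: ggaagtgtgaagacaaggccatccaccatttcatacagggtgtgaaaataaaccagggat

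Of the 31 gene lists, the cytosolic ribosomal and respiratory lists had the lowest medians with all animals, and without PR animal 1 the ribosomal list had the lowest. Of 81 cytosolic ribosomal protein genes, 79 had a breed difference below 0, with a median of -0.38, against 8555 of 13598 genes and a median of -0.061 overall. The 2 above 0 were RPL10L and RPL3L. The list's median response in HF animals 1 to 4 was -0.062, -0.33, 0.10 and -0.17, and in PR animals 0.62, 0.051, 0.31 and 0.18. The lowest PR animal, 2, lay below the highest HF animal, 3. The ribosomal median was -0.28 without PR animal 1 and -0.33 without HF animals 2 and 3. An unadjusted p under 0.05 with a smaller HF response was found for 33 members (3.13% of all genes), and separate responses for 10 (1.52% of all genes). RPL27A had responses of -0.062, -0.39, 0.13 and -0.082 in HF and 0.97, 0.29, 0.42 and 0.30 in PR, a difference of -0.60 (SE 0.18, unadjusted p = 0.0083). RPL37 had a difference of -0.93 (SE 0.29), RPL39 -0.74 (SE 0.31), RPS27 -0.73 (SE 0.27) (3 probes, -0.83 to -0.078) and RPL13A -0.51 (SE 0.16), the last with separate responses. The RPL39 value was -1.14 without HF animals 2 and 3. Ribosomal protein genes have many near-identical pseudogene copies that a probe may also bind.

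Respiratory complex I genes had a breed difference below 0 in 36 of 38 members (median -0.38), and genes of complexes II to V in 46 of 47 (median -0.37). These medians depended on PR animal 1: without it they were -0.17 and -0.12, against -0.022 over all genes. NDUFS5, a complex I subunit gene, had -0.70 (SE 0.30), which was -0.44 without PR animal 1, and COX6C, a cytochrome oxidase subunit gene, -0.77 (SE 0.33). Only 1 complex I gene and 2 of complexes II to V had an unadjusted p under 0.05 with a smaller HF response, shares near the 3.13% of all genes. The mitochondrial ribosomal proteins had 71 of 77 members below 0 (median -0.20, -0.13 without PR animal 1). The proteasome had 35 of 36 (-0.23, -0.068), and translation factors 44 of 51 (-0.23, -0.083), among them EIF1B at -0.73 (SE 0.26), or -0.38 without HF animals 2 and 3. The median response of PR animal 1 over all genes was itself 0.19, and the medians of the other 7 animals lay between -0.043 and 0.0018. The part of that array in these lists was not tested beyond the values without it.

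**Figure D3:**
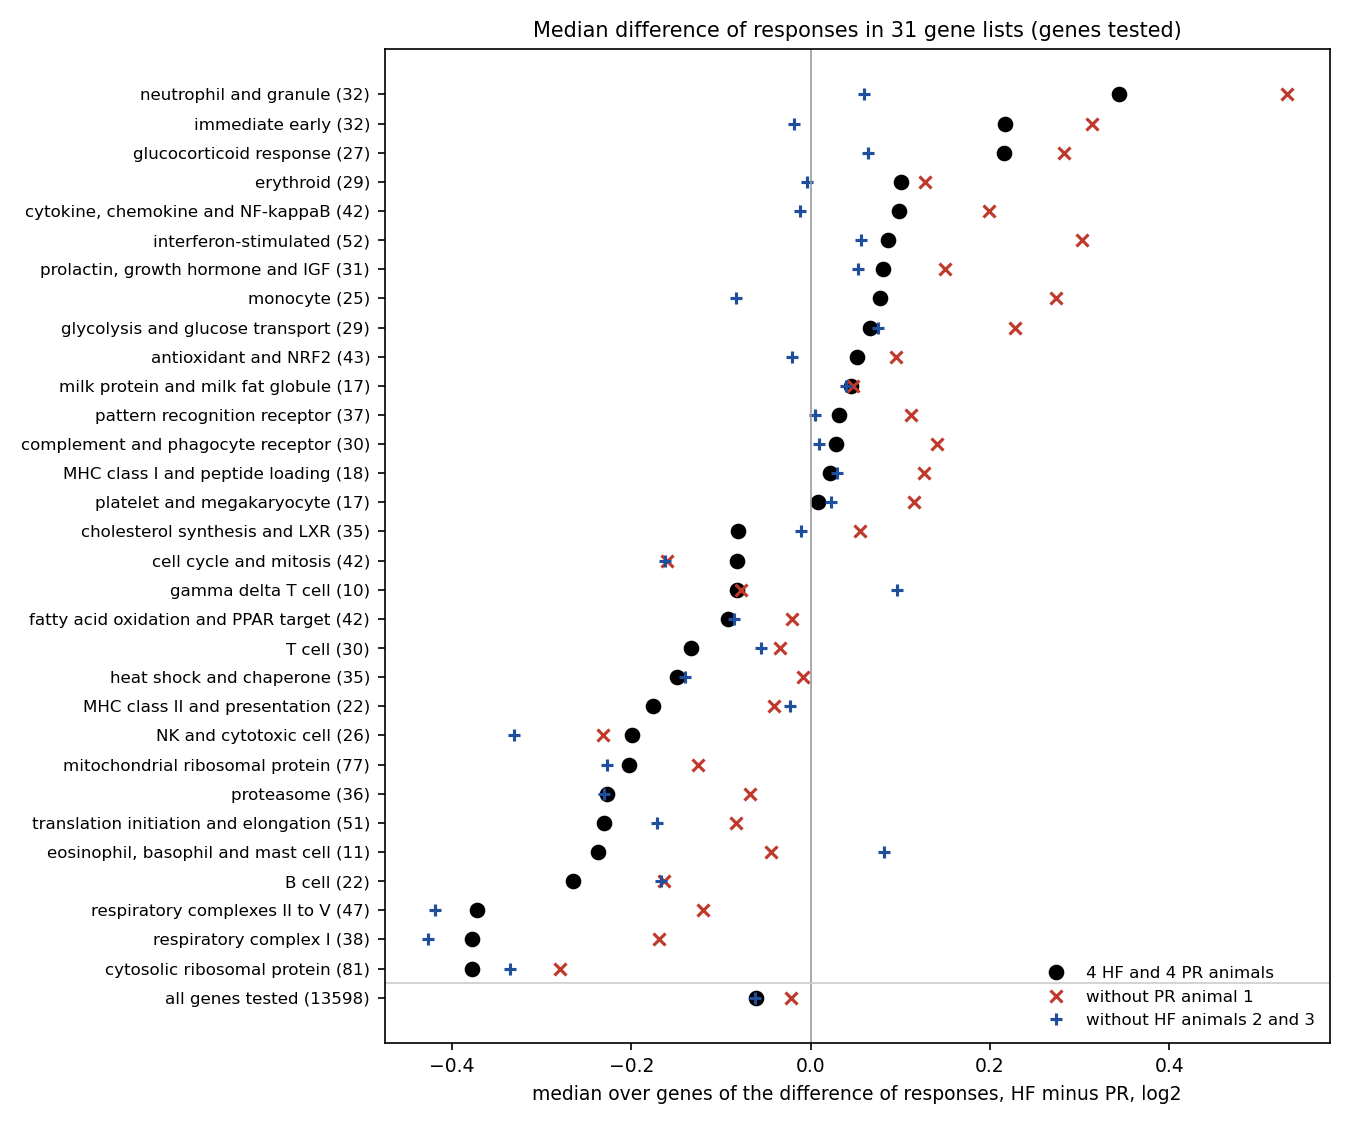
Median breed difference of the lactation response (HF minus PR, log2, horizontal axis) over the measured members of each gene list, with all animals (filled circles), without PR animal 1 (crosses) and without HF animals 2 and 3 (plus signs), and over all genes. The cytosolic ribosomal protein list lies at -0.38 with all animals and -0.28 without PR animal 1, and the neutrophil list at 0.34 and 0.53, but at 0.059 without HF animals 2 and 3.

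The NK, B and T cell lists lay below 0 with all animals, as did 8555 of 13598 genes (median -0.061, -0.022 without PR animal 1). Without HF animals 2 and 3 and PR animal 1 the list medians were -0.33, -0.0093 and 0.051 in the same order. The median over all genes was then -0.0095. Of 26 measured NK and cytotoxic cell genes, 23 had a smaller HF response, with a median of -0.20, -0.23 without PR animal 1 and -0.33 without HF animals 2 and 3. The animal medians were -0.35, -0.21, -0.20 and -0.14 in HF and -0.16, 0.058, 0.030 and -0.025 in PR. HF animal 4, at -0.14, lay within the PR range, and the other 3 HF animals below it. An unadjusted p under 0.05 was found for 10 members (3.13% of all genes), and separate responses for GZMB, CST7 and CTSW, the last 2 being a cystatin and a cathepsin of cytotoxic granules. CST7 had -0.44 (SE 0.13), CTSW -0.36 (SE 0.16) and the chemokine gene CCL5 -0.73 (SE 0.21). The CCL5 value was -0.46 with slide as a block. The B cell list had 20 of 22 genes below 0 (median -0.27, -0.16 without PR animal 1). The signalling chain gene of the B cell antigen receptor, CD79A, had -0.75 (SE 0.25) with overlapping responses. FCRLA, a B cell Fc receptor-like gene, had -0.46 (SE 0.17). T cell genes were below 0 in 25 of 30 (median -0.13), and without PR animal 1 that median was -0.035. CD3E, a T cell receptor chain gene, had -0.39 (SE 0.19), or -0.21 without PR animal 1. In the gamma delta T cell list, 4 of 10 were above 0 and 6 below (median -0.083, 0.10 without HF animals 2 and 3), and its members disagreed: TARP, a name for T cell receptor gamma sequence, had 0.79 (SE 0.28) (5 probes, 0.24 to 0.79), and WC1, a scavenger receptor gene of these cells, -0.31 (SE 0.13).

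Neutrophil and granule genes lay above 0, but on few HF animals. Of 32 measured, 24 had a larger HF response (median 0.34, 0.53 without PR animal 1). The median responses were 0.18, 0.41, 1.04 and 0.11 in HF animals and 0.86, 0.15, -0.24 and -0.062 in PR animals, which overlap, with HF animal 3 and PR animal 1 highest. Without HF animals 2 and 3 the list median was 0.059. The level of the list, its mean log2 ratio on an array, ranged from -0.84 to -0.22 in dry HF, -0.35 to 1.07 in lactating HF, -0.74 to -0.29 in dry PR and -0.41 to 0.040 in lactating PR animals. MMP9, the granule gelatinase, had responses of 1.04, 2.77, 2.33 and 0.51 in HF and 1.62, 1.11, -0.44 and -0.10 in PR, a difference of 1.12 (SE 0.58) that was 0.23 without HF animals 2 and 3, with 3 probes at 0.37 to 1.12. S100A9, a calprotectin subunit gene, had 0.81, 2.84, 1.49 and 0.47 and 1.90, 0.27, 0.26 and -0.023, a difference of 0.80 (SE 0.55) or 0.034 without those animals. Without HF animal 2 alone S100A9 had 0.32, and without PR animal 1 1.23. S100A12, its relative, had 0.38 (SE 0.53), and -0.58 without them. VNN2, a neutrophil vanin, had 0.71 (SE 0.23) (0.35 without them), and the chemokine receptor gene CXCR2 0.68 (SE 0.24). Only 2 members had an unadjusted p under 0.05 (1.61% of all genes), and none had separate responses. The monocyte list had 18 of 25 above 0, with a median of 0.077, 0.27 without PR animal 1 and -0.083 without HF animals 2 and 3, and it was below 0 with median centring and with Cy5 alone. TLR4, the endotoxin receptor gene carried by both cell types, had 0.51 (SE 0.22), or 0.31 without PR animal 3.

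**Figure D4:**
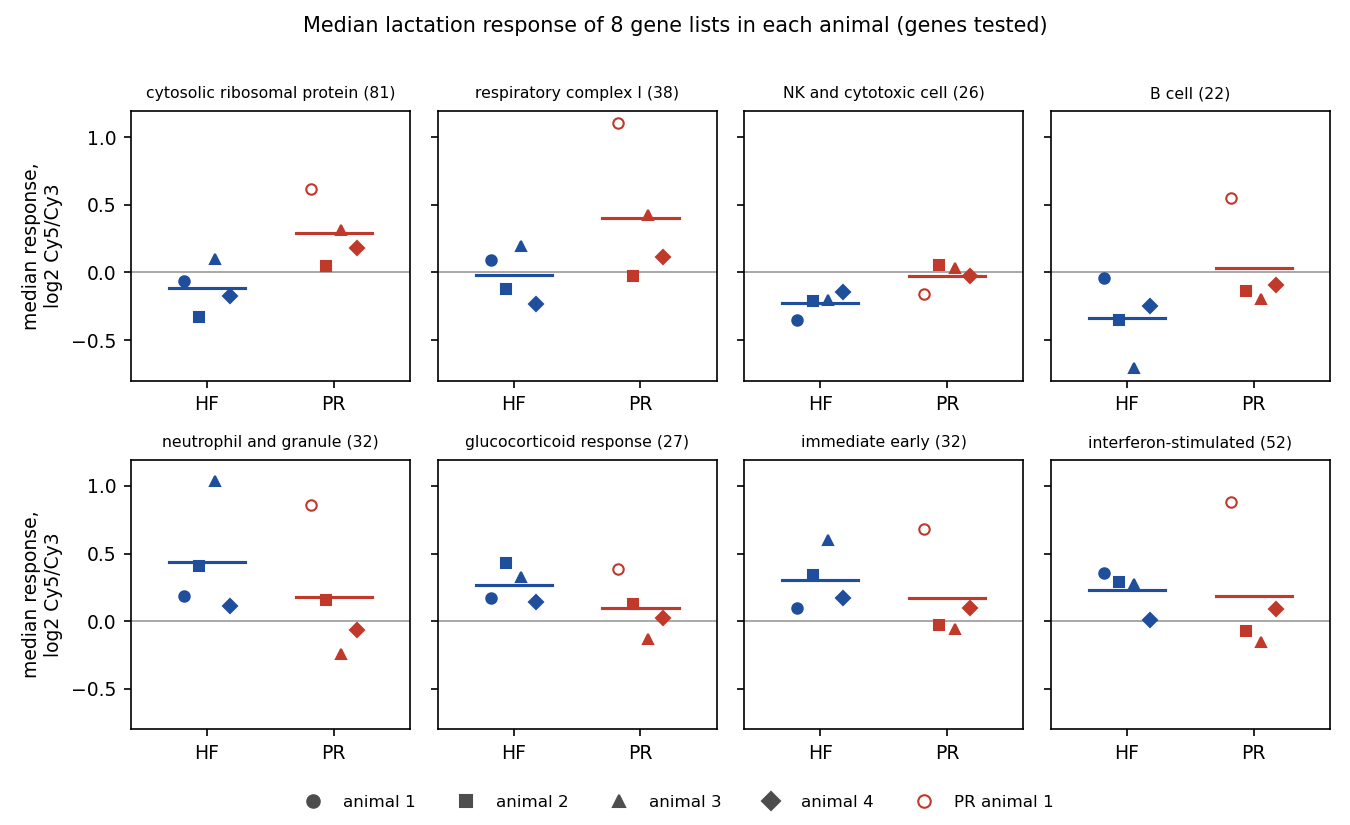
Median lactation response (peak lactation minus dry period, log2, vertical axes) of list members in each HF and PR animal, 1 point an animal. The ribosomal medians are 0.62 in PR animal 1 and 0.10 or lower in all HF animals, and the neutrophil median is 1.04 in HF animal 3 and 0.86 in PR animal 1.

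The glucocorticoid list had 19 of 27 genes with a larger HF response (median 0.22, 0.28 without PR animal 1, 0.064 without HF animals 2 and 3), and its sign turned with Cy5 alone, to -0.036. DDIT4, a stress-induced brake on mTOR, had 0.59, 0.97, 1.11 and 0.53 in HF and 0.47, 0.31, -1.08 and 0.23 in PR, a difference of 0.82 (SE 0.32, unadjusted p = 0.0294) with PR animal 3 far below the rest, and 0.46 without it. FKBP5, which dampens the glucocorticoid receptor, had 0.53 (SE 0.22) (4 probes, 0.24 to 0.53), and the decoy receptor gene IL1R2 0.65 (SE 0.25), or 0.27 without HF animals 2 and 3. Immediate early genes were above 0 in 21 of 32 (median 0.22, -0.018 without HF animals 2 and 3). JUN, an AP-1 subunit gene, had responses of 0.71, 0.69, 2.30 and 0.43 in HF and -0.21, 0.80, -0.038 and 0.14 in PR, a difference of 0.86 (SE 0.39), 0.40 without those animals and 0.44 without HF animal 3 alone. KLF6 had 0.51 (SE 0.17), and the small MAF gene MAFF, with separate responses, 0.38 (SE 0.14). KLF10, a TGF-beta-induced factor of the same list, ran the other way, with -0.048, -0.26, -0.11 and 0.17 in HF, 0.74, -6.5e-05, 1.21 and 1.21 in PR and a difference of -0.85 (SE 0.25, unadjusted p = 0.00804).

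Interferon-stimulated genes were above 0 in 33 of 52 (median 0.086, 0.30 without PR animal 1), and that median was below 0 with median centring and with Cy5 alone. IFIT2, an interferon-induced RNA-binding protein gene, had 0.78, 0.85, 0.62 and 0.79 in HF and 0.19, 0.48, -0.92 and -0.37 in PR, separate responses and a difference of 0.91 (SE 0.27, unadjusted p = 0.00676). LGALS9, IFIT2 and CMPK2 (0.37 (SE 0.15)) were the 3 members with an unadjusted p under 0.05 (1.61% of all genes). MX1, a classical antiviral member, had -0.45 (SE 0.32) and MX2 0.44 (SE 0.21). RIGI was counted in this list under its current and an older symbol. The pattern recognition list was split 21 to 16 (median 0.032, below 0 with the same scalings), with NOD2 above 0 and TLR10, a B cell receptor of the family, at -0.40 (SE 0.13) with separate responses, or -0.25 without HF animals 2 and 3.

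In lipid synthesis and hormone signalling, single genes lay further from 0 than the medians of their lists. NR1H3, the sterol sensor LXR-alpha, had responses of 1.15, 0.92, 1.46 and 0.60 in HF and 0.65, 0.33, 0.36 and 0.045 in PR. All 8 animals were higher at peak lactation, the breeds overlapped by HF animal 4 and PR animal 1, and the difference was 0.69 (SE 0.20, unadjusted p = 0.00659), with 3 probes at 0.47 to 0.71. The cholesterol synthesis and LXR list had 13 of 35 above 0 (median -0.080, 0.055 without PR animal 1), near the share over all genes, 5043 of 13598. Its synthesis genes HMGCS1 and SQLE had -0.43 and -0.23. In the prolactin, growth hormone and IGF list 23 of 31 were above 0 (median 0.081, 0.15 without PR animal 1), a larger share than over all genes. Apart from the Cy3 reference alone, its median was 0.039 to 0.18 in the 27 alternatives. SOCS1, a feedback inhibitor of cytokine receptors, had 0.32, 0.24, 0.34 and -0.016 in HF and -0.48, -0.20, -0.82 and -0.0060 in PR, a difference of 0.60 (SE 0.18, unadjusted p = 0.00858). The 3 SOCS1 probes disagreed in size, from 0.0090 to 0.60. INSR, the insulin receptor gene, with separate responses, had 0.33 (SE 0.14, unadjusted p = 0.0371), and its 5 probes 0.058 to 0.34. The prolactin receptor gene PRLR had 0.13, the growth hormone receptor gene GHR 0.11, STAT5A -0.16 and STAT5B 0.26. Among milk fat genes, DGAT2, which makes triacylglycerol, had 0.96 (SE 0.42) (0.54 without HF animals 2 and 3), and PLIN2, the lipid droplet coat, 0.57 (SE 0.29) (0.35 without them, 0.86 without PR animal 1). The casein gene CSN2 had 0.023. IDH1, an NADPH-forming enzyme gene of the antioxidant list, had 0.40 (SE 0.11) with separate responses, and that list was split 24 to 19.

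The remaining lists lay nearer 0 or changed sign between alternatives. Over all genes, 8555 of 13598 were below 0 (median -0.061, -0.022 without PR animal 1). Heat shock and chaperone genes were below 0 in 26 of 35 (median -0.15, -0.0086 without PR animal 1), MHC class II genes in 18 of 22 (-0.18, -0.041) and cell cycle genes in 31 of 42 (-0.082, -0.16). Eosinophil, basophil and mast cell genes had -0.24, which became -0.045 without PR animal 1 and 0.082 without HF animals 2 and 3. The erythroid list had 18 of 29 above 0 (0.10, -0.0041 without HF animals 2 and 3), with SLC25A37, the mitochondrial iron importer gene, at 0.84 (SE 0.27), or 0.53 without those animals. The platelet list was split 9 to 8 (0.0082), although PPBP and RGS18, at -0.64 (SE 0.23), were both below 0. Medians were 0.067 for glycolysis, 0.10 for cytokines and NF-kappaB, 0.029 for complement and phagocyte receptors, 0.022 for MHC class I, 0.052 for antioxidant genes and 0.045 for milk proteins and fat globules. Of these, the milk list stayed above 0 with median centring and with Cy5 alone, and the other 5 lists, like the platelet list, were below 0 with both.

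The authors' deposited tables give the transcripts that differed between states within each breed by their analysis of variance. Their lists name 437 probes for HF and 158 for PR, with 15 in both, 3.43% of the HF list and 9.49% of the PR list. These lists were tested within a breed, so absence from one of them is no test of a breed difference. By the authors' deposited table, CPT1A was in the PR list, with mean responses of -0.12 in HF and 1.42 in PR, and SLC25A20 likewise, with -0.16 and 0.76. In the authors' deposited table OSCAR was in the HF list, at 1.33 in HF and -0.39 in PR, as was IRG1, at 1.33 and 0.37. Over the HF list of the authors' deposited table, 72 of 437 probes had opposite mean signs in the breeds, and the median size of the response was 0.68 in HF and 0.20 in PR. Over their PR list, 38 of 158 had opposite signs in the authors' deposited values, with median sizes of 0.15 in HF and 0.54 in PR. Each list was chosen on the arrays of 1 breed, which favours larger values in that breed.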

How the data were processed

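Intensities of 60-base probes on 2-colour Agilent bovine arrays were used as deposited by the authors, per the file headers from Feature Extraction 10.10.1.1, whereas the submitters' processing notes name 10.7.3.1. Probe positions are on UMD 3.1, per the file headers. The deposited log10 ratio of Cy5 over Cy3 served as an alternative. The authors' deposited tables hold log2 ratios of listed transcripts and were used to give their values. Whether the probes lie in exons or UTRs was not analysed here.

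Mean signals were corrected by normexp (offset 50) against the median local background and normalized by loess within each array. Control spots (1417) had weight 0, outlier spots (992) were left out, and spots of a probe were averaged. The 4 animals a breed limit the precision. Probes were tested where Cy5 was well above background on 3 of 4 arrays in at least 1 group: 33478 of 43653. Limma on 8 responses (residual df 6, prior df 3.53) tested HF minus PR with Benjamini-Hochberg adjustment over all of them at 0.05, two-sided. Nothing in the labels gives a repeat array of an animal's sample. The fit was tested on simulated data.

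Subject numbers pair arrays because each animal was bled in both states, per the labels' design text. Deviations of an animal's arrays correlated at 0.18 to 0.50 in HF and 0.028 to 0.28 in PR, and each array pair was best matched within its animal in 4 HF and 3 PR animals. Both arrays of each HF animal and of PR animals 1 and 4 lay on 1 slide. In those pairs a match by animal cannot be told apart from a match by slide. The pairs that crossed slides, PR animals 2 and 3, had 0.089 and 0.15.

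Names were taken for 34311 probes (16570 genes): 26743 matched by accession, 6122 by symbol or synonym and 955 by another accession to RefSeq names of ARS-UCD2.0, and 491 kept the file's name. A gene is its brightest probe. Named genes were, among those above background in all groups, the 12 of smallest p in each direction with separate responses, the 8 in each direction with opposite responses, the 3 of smallest p in each list, and genes named for an earlier report. Some genes under this rule are not reported here. List members mentioned for their role alone were chosen after their values were seen. The genes and lists were chosen with earlier results of these data known, and lists got no test.

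Alternatives were fits without the animal block, without each animal, other background, scaling and filters, slide, array position and array weights. Added after seeing the data were fits with PR animals 1 and 4 only, without PR animals 1 and 2, and with outlier spots kept. Quantile normalization between arrays was run on log ratios, because quantile normalization of average intensities leaves them as they are. R 4.3.3, limma 3.58.1, data.table version 1.17.8, Python 3.11.15 and matplotlib 3.10.9 were used.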

Additional observations from a re-analysis of the deposited data

Results flagged for a closer look

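Among the named genes, 17 had opposite responses, as did 42 of all 13598 genes with HF higher (0.309%) and 40 with HF lower (0.294%). In these 17, every HF response had one sign and every PR response the other, while the limma test of the breed difference did not pass its threshold for any of them. Some of these signs rest on responses close to 0. Among them were PR animal 2 for LANCL1 (0.00029), PR animal 3 for HLTF (0.0010) and INTS1 (0.023), PR animals 2 and 4 for GPR18 (0.020 each) and PR animal 4 for PIK3AP1 (-0.021). Higher at peak lactation in HF and lower in PR were LGALS9, with a breed difference of 0.66, KLF15 (0.70), GALNTL5 (0.63), SLC35E4 (0.54), MYBPH (0.70), ACVR2B (0.39), PIK3AP1 (0.48), REM2 (0.34) and SREBF1 (0.40). Lower in HF and higher in PR were CXCR6, at -0.64, TRIB2 (-0.83), HLTF (-0.75), FAM120B (-0.45), GPR18 (-0.50), LBH (-0.72), INTS1 (-0.57) and LANCL1 (-0.36). Most were named because of these opposite signs, so the signs are a description.

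In 5 of the 73 genes followed, each screened in both breeds, 1 animal lay far from the other 3 of its breed. These were ZNF836 in HF animal 4 (response 0.031), DDIT4 in PR animal 3 (-1.08) and JUN in HF animal 3 (2.30). In PR animal 1 they were RPL13A (0.74) and S100A9 (1.90). By the nominal level of the cut, chance places an animal this far in about 1 of 20 groups, a rate not measured here. Many groups were screened, and most of the genes were picked for small p, so the 5 genes are a description. Neither they nor the list medians that follow were tested against that rate. Among list medians, PR animal 1 lay above the other PR animals for B cell (0.55), cytokine (0.12), pattern recognition (0.27), complement and phagocyte (0.59), fatty acid (0.58), cholesterol (0.57), glycolysis (0.81), antioxidant (0.39) and translation (0.76) genes. HF animal 2 lay below the other HF animals for cholesterol (-0.27) and translation (-0.11) genes. The dry-period array of PR animal 1 is the one with a median Cy5 intensity of 2038, and the part of that intensity in these medians was not tested.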

How the results depend on the processing

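Limma called 0 probes under every one of 27 alternatives, with a lowest adjusted p of 0.0886, from the Agilent log ratio. Apart from the Cy3 reference alone, 71 of 73 genes followed kept the sign of their breed difference in every alternative. Many of these genes were picked from these data for separate responses, and leaving out animals cannot turn the sign of such a gene. Some that kept their sign still came close to 0. Their lowest values over these alternatives were 0.041 for NOD2, 0.044 for IDH1, 0.044 for MAFF, 0.038 for INSR and 0.024 for TMEM51. LANCL1 became 0.026 with Cy5 alone. S100A12 (-0.13 to 0.85 with 1 animal left out) became -0.13 without HF animal 2, -0.58 without HF animals 2 and 3, -0.40 without these and PR animal 1, and -0.080 with median centring. Values of the 73 genes moved toward 0 by over 1.5 times for 13 genes without HF animals 2 and 3 and for 2 without PR animal 1. They did so for 23 without HF animals 2 and 3 and PR animal 1 and for 20 with Cy5 alone. The number was 9 with PR animals 1 and 4 only, and also 9 without the block and PR dry array 1. Apart from the Cy3 reference alone, the sign of 12 of 31 list medians was kept in all 27 alternatives run for lists, among them the neutrophil, NK, B cell, ribosomal and respiratory lists. The B cell median was only -0.0093 without HF animals 2 and 3 and PR animal 1, against -0.0095 over all genes.

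Without the replicate block, that is without pairing arrays by animal, 1034 probes had an unadjusted p under 0.05 against 1550 (991 with all 24 arrays), and 0 an adjusted one. Leaving out single animals gave 787 (HF animal 2) to 3081 (PR animal 2). The count was 487 without HF animals 2 and 3, 734 with median centring, 2918 with slide as a block, 214 with Cy5 alone, 53 with the Cy3 reference alone, 3606 with array weights, 3414 with PR animals 1 and 4 only and 3968 without PR animals 1 and 2. The share with a larger HF response, 46.9%, became 61.27% without the block and PR dry array 1, 58.83% without HF animal 2, 73.2% and 21.97% without PR animals 1 and 2 in turn, 70.92% without HF animals 2 and 3 and PR animal 1, 62.41% with the Agilent log ratio, 24.93% with median centring, 26.63% with slide, 24.81% with array position and 17.31% with PR animals 1 and 4 only.

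Separate responses, 952 probes, numbered 1432 (without HF animal 2) to 3400 (without PR animal 2) with 1 animal left out. They numbered 3024 without HF animals 2 and 3, 6200 without these and PR animal 1, 389 with median centring, 584 with Cy3 alone, 6111 with PR animals 1 and 4 only and 7822 without PR animals 1 and 2. Opposite responses, 209 probes, numbered 314 to 904 with 1 animal left out, and 728, 1773, 61, 103, 1520 and 2255 in the same order. Fewer animals make both easier to reach. Lists with a median above 0, 15, numbered 6 with median centring, 5 with Cy5 alone, 1 with Cy3 alone and 7 with PR animals 1 and 4 only. Median centring moved the median over all genes by -0.11 and Cy5 alone by -0.14. With Cy3 alone, which holds the reference and no animal, 78 of 124 named genes had the same sign. The correlation of responses, 0.30, was 0.19 to 0.34 with 1 animal left out, 0.20 without HF animals 2 and 3 and PR animal 1, 0.19 with median centring, 0.75 with array position, -0.010 with Cy5 alone, -0.27 with Cy3 alone, 0.23 with PR animals 1 and 4 only and 0.089 without PR animals 1 and 2. The fit with array position takes the same position terms out of the responses of both breeds, which can by itself make them correlate. Its correlation is therefore not comparable with the others. The causes were not tested.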
